A study of Mus musculus with 4 samples.

Results

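The GIMAP genes (GTPases of the immunity-associated protein family) were followed in RNA-seq of splenic B cells stimulated with LPS for 72 h, in control and cKO samples. The family comprised 8 genes of the 30041 listed: Gimap1, Gimap3, Gimap4, Gimap5, Gimap6, Gimap7, Gimap8 and Gimap9. It was chosen by the measured fall of Gimap7, which lies below the 0.5-fold limit that the study set for its list of reduced genes, and the members were found by their symbols. All 8 had a score of at least 0.005, the minimum for testing, in every sample. The question was whether the fall of Gimap7 was shared by its neighbours.

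Control B cells came from Nfkbiz fl/Δ mice and cKO B cells from Nfkbiz fl/Δ Mb1 cre/+ mice, with 2 samples of each. Controls therefore also carried a deleted Nfkbiz allele beside the floxed allele, and only the cKO group carried Cre, which is driven from the Cd79a (Mb-1) locus and so acts in the B lineage. Nfkbiz encodes IκB-ζ, a nuclear IκB protein that is induced by Toll-like receptor ligands. The strain was C57BL/6, and cells had been enriched by depletion of CD43-, CD4- and Ter-119-positive cells before culture. The age of the mice, and whether mice were pooled, were not given in the sources used here. Nothing states that the 2 samples of a group came from separate mice or cultures, so every p-value measures the spread between these samples, which may be technical.

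GIMAP proteins are GTPases found mainly in lymphocytes of vertebrates, where they sit on or near intracellular membranes and are needed for lymphocytes to survive. Each has a guanine nucleotide-binding domain of the same fold as that of the septins, opened by the P-loop (G1 motif), the glycine-rich stretch that holds the phosphates of GTP. Mouse and rat lines without Gimap5 are lymphopenic, and loss of Gimap1 in mice depletes mature T and B cells. In mouse the genes lie side by side on a single chromosome.

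Each gene had a score in each sample. The authors did not state its unit, but the values behave as reads per base of exon, scaled to library size, and levels of different genes are compared here only on that inferred per-length scale. The scores of a sample summed to between 604.2 and 637.6, and the inferred depth was 17525000 to 19920000 reads per sample. Changes are log2 fold changes of score + 0.0001, cKO minus control, tested with limma over the 9727 genes past the minimum, with Benjamini-Hochberg adjustment and a threshold of 0.05. Nfkbiz itself had scores of 0.02409 and 0.02264 in control and of 0.0127 and 0.01156 in cKO cells. Its log2 fold change was -0.94 (SE 0.0956, limma adjusted p = 0.0282), in the direction of the labels, although without cKO replicate 1 the adjusted p was 0.13, and without cKO replicate 2 it was 0.0885.

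The coding sequences show how alike the members are, which bears on how well short reads can tell them apart. The P-loop codons of Gimap7, of its closest relative Gimap9, and of the pair Gimap3 and Gimap5 are shown here in the sense direction from the GENCODE transcripts on NCBIM37 (mm9), with the last 3 codons (glycine, lysine and serine) in capitals.
Gimap7: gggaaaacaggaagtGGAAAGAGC
Gimap9: gggaagactggaaatGGGAAGAGT
Gimap3: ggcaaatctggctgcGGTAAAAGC
Gimap5: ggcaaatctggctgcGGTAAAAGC
Gimap8, which carries several nucleotide-binding domains in a single protein, held 3 such motifs, whereas each other member held 1. Motifs 1 and 3 are shown for their differences in the codons before the capitals.
Gimap8, motif 1: gggaaacagggcgcaGGCAAAAGT
Gimap8, motif 3: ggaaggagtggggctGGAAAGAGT
The P-loop codons of Gimap3 and Gimap5 were the same letter for letter. Their coding sequences were 89.8% identical over 901 aligned bases, against 65.1% for the next pair, Gimap7 and Gimap9, and 54.6 to 63.0% for all others. The longest run shared by the Gimap3 and Gimap5 coding sequences was 140 bases, longer than a read of 38 bases, and is shown because reads from it cannot be assigned to either gene.
Gimap3 and Gimap5: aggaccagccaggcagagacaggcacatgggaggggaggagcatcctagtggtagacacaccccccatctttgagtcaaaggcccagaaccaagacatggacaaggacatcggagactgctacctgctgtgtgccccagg

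Of the 38-base windows of Gimap3 exons, 67.42% occurred once in the genome, and 32.58% (274 windows) occurred also in Gimap5 exons, where they made up 12.43% of the windows. No other pair of members shared a window of this length. Every window of Gimap7, Gimap4 and Gimap9 was found once, as were 97.46% of those of Gimap6, 90.91% of Gimap8 and 88.98% of Gimap1, whose remaining windows lay elsewhere in the genome. By this measure no read of Gimap7 fits a relative as well, whereas Gimap3 and Gimap5 can draw on the same reads, and the way reads with several matches were counted is not given in the sources used here. The exon model of Gimap3 in GENCODE was limited to 906 bases of coding sequence, and Gimap1 was taken without 2 of its 5 annotated transcripts, which run into exons of another member.

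**Figure D1:**
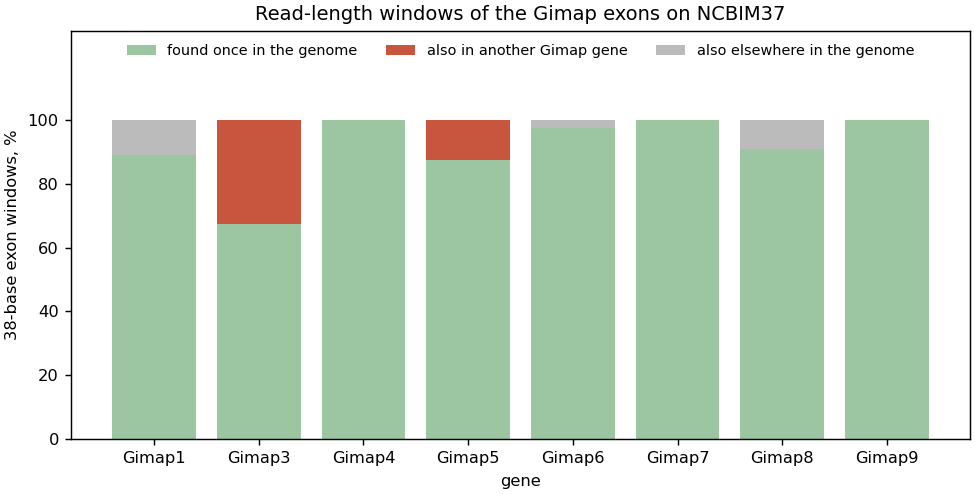
Share of the 38-base windows of each gene's exons that occur once on NCBIM37, also in another Gimap gene, or elsewhere (vertical axis, %, bars from 0). Gimap3 has the lowest share found once, 67.42%, and Gimap7, Gimap4 and Gimap9 are at 100%.

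Gimap7, which hydrolyses GTP when it pairs with itself or with another family member, had scores of 0.03635 and 0.02884 in the control samples and of 0.00954 and 0.01108 in the cKO samples. Both cKO samples lay far below both controls. The mean score was 0.0326 ± 0.00531 (SD, n = 2) in control and 0.0103 ± 0.00109 (SD, n = 2) in cKO cells, a ratio of geometric means of 0.318. The fall amounted to 3.15-fold, or a log2 fold change of -1.65 (SE 0.142), and is given without a test because it chose the family. On the inferred scale these scores stand for 823 and 671 reads in control and 241 and 246 in cKO cells. The sole member inside the 0.5-fold limit was Gimap7, and the member just outside it was Gimap3 at 0.514. Of all genes tested, 0.864% lay below that limit. As RNA was taken from whole cultures, fewer cells that express a gene and less RNA per cell cannot be told apart.

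Gimap3 and Gimap5, a closely related pair whose products are reported to bind proteins of the Bcl2 family, stood next in the size of the fall, with Gimap4 between them. Gimap3 had scores of 0.10619 and 0.09487 in control and of 0.05077 and 0.05237 in cKO cells. The cKO scores lay well under both controls and differed little from each other. Its log2 fold change was -0.96 (SE 0.091, 95% interval -1.18 to -0.74), and it passed the test (limma adjusted p = 0.0227). That call was lost without cKO replicate 1 (adjusted p = 0.136) and without cKO replicate 2 (adjusted p = 0.0792), whereas the log2 fold change stayed at -0.94 and -0.98. Gimap5, whose product is placed on lysosomes and related membranes, had scores of 0.04986 and 0.05481 in control and of 0.03505 and 0.03914 in cKO cells. Its groups did not overlap, but the log2 fold change of -0.50 (SE 0.0993, 95% interval -0.74 to -0.25) had a limma adjusted p of 0.076. Because these genes share windows, their separate values are uncertain to the extent of the shared reads.

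Gimap4, which is linked to apoptosis of lymphocytes, was the member with the widest spread between control samples, at 0.17755 and 0.1373, a ratio of 1.29. Its cKO scores of 0.09415 and 0.10559 were both lower. The log2 fold change was -0.65 (SE 0.14, 95% interval -0.99 to -0.30), with a limma adjusted p of 0.0917. Here the call turned on the settings of the fit. The limma adjusted p was 0.0491 with a replicate block and 0.0362 with a crossed block. It was 0.138 with no variance trend and 0.255 with no minimum score. The log2 fold change was -0.83 without control replicate 2 and -0.46 without control replicate 1. It was -0.56 without cKO replicate 1 and -0.73 without cKO replicate 2.

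Gimap8, the member with several nucleotide-binding domains, had scores of 0.05779 and 0.05806 in control and of 0.04673 and 0.04463 in cKO cells. Its control samples were the most even of the family, and the groups were apart. The log2 fold change of -0.34 (SE 0.08, 95% interval -0.54 to -0.15) did not pass (limma adjusted p = 0.103). Gimap6, whose product binds the autophagy protein GABARAPL2, was the most abundant member, with scores of 0.2013 and 0.19711 in control and of 0.18437 and 0.162 in cKO cells. The cKO samples lay under the controls by a small margin. Its log2 fold change was -0.20 (SE 0.092, 95% interval -0.43 to 0.02, limma adjusted p = 0.26).

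The remaining members gave no fall past the test. Gimap1, which mature T and B cells require, had scores of 0.09237 and 0.09177 in control and of 0.07931 and 0.09637 in cKO cells. The cKO samples lay on either side of the controls, and the log2 fold change was -0.07 (SE 0.112, 95% interval -0.35 to 0.20, limma adjusted p = 0.717). Without cKO replicate 1 its log2 fold change was 0.07. Gimap1 is overlapped in part by the antisense gene Gm3345, whose log2 fold change was -0.43 (SE 0.134, limma adjusted p = 0.158). Counting is not stated to use strand, so reads from the stretch where these genes overlap cannot be assigned to either. Gimap9 was the single member with higher cKO scores, at 0.04751 and 0.03928 against 0.03159 and 0.03689 in control. The groups did not overlap, and the log2 fold change of 0.34 (SE 0.13, 95% interval 0.02 to 0.66) had an unadjusted limma p of 0.0413 and an adjusted p of 0.211. The change was thus not past the threshold.

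**Figure D2:**
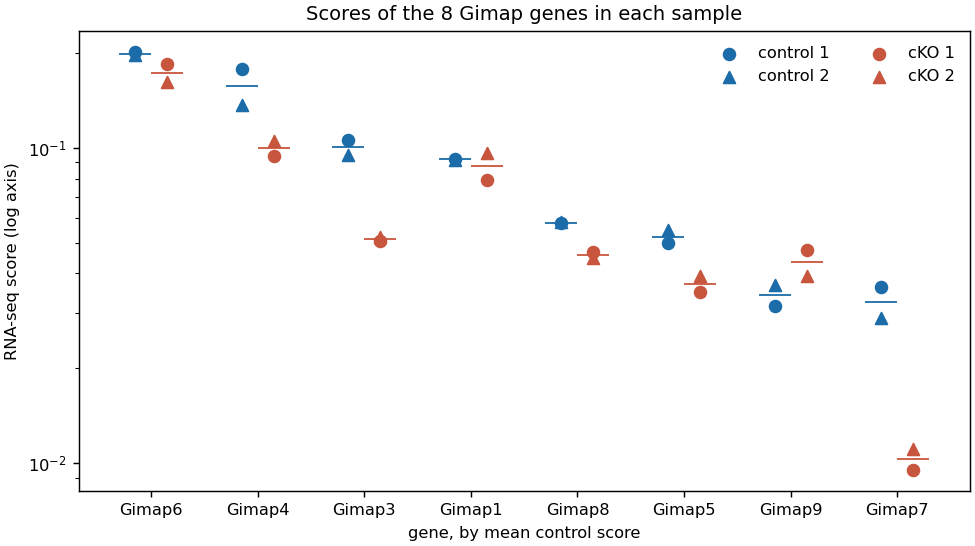
Scores of the 8 Gimap genes in each of the 4 samples (vertical log axis, score), ordered by mean control score, with horizontal lines at the group means. Gimap7 is lowest in cKO, at 0.00954 and 0.01108, Gimap1 is the member whose groups overlap, and Gimap9 is the member with higher cKO scores.

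Of the 7 members other than Gimap7, 6 had a lower and 1 a higher fitted level in cKO cells, with a median log2 fold change of -0.34, beside -0.01 over all genes tested. Called lower was 1 of the 7 (Gimap3), where 1.25% of all genes tested were called lower. Called higher was 0 of the 7 by limma, where 0.812% of all genes tested were called higher. At an unadjusted p below 0.05, 4 of the 7 (Gimap3, Gimap4, Gimap5 and Gimap8) were lower and 1 (Gimap9) was higher. Of all 9727 genes tested, 1117 were lower and 1052 higher at that threshold. The groups stood apart with cKO lower for 5 of the 7 and for 30.1% of all genes tested, and with cKO higher for 1 of the 7 and for 28.1% of all genes. Since the family was chosen on the same contrast, these counts describe the members and are not read as support for a family-wide change. Leaving out control replicate 2 brought the count called lower to 2, and with a replicate block it was 2. Leaving out cKO replicate 1 or cKO replicate 2 brought it to 0, as it did for the whole table, where limma then called 0 of the 9727 genes in either direction, with 519 lower and 428 higher at an unadjusted p below 0.05 without cKO replicate 1 and 982 and 767 without cKO replicate 2.

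The order of the members by level also shifted. By mean control score it ran Gimap6, Gimap4, Gimap3, Gimap1, Gimap8, Gimap5, Gimap9 and Gimap7, and of these neighbours Gimap9 and Gimap7 alone had overlapping control samples. In cKO cells it ran Gimap6, Gimap4, Gimap1, Gimap3, Gimap8, Gimap9, Gimap5 and Gimap7, and here the samples of Gimap4 and Gimap1, and those of Gimap8 and Gimap9, overlapped. Gimap1 thus moved above Gimap3, and Gimap9 above Gimap5, while Gimap7 was last in either group. Among all genes tested, the mean control score of Gimap7 lay at percentile 71.5 and that of Gimap6 at percentile 95.8, so even the least abundant member was not a rare transcript in these cells.

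Summed over the 8 members, the score was 0.753 and 0.6997 in control and 0.5474 and 0.5505 in cKO cells. Without Gimap7 the sum was 0.71665 and 0.67081 in control and 0.53789 and 0.53938 in cKO cells. Gimap7 therefore accounted for a small part of the lower sum, and the abundant Gimap4 and Gimap3 for more. The share of Gimap7 in the family sum was 4.83 and 4.12% in control and 1.74 and 2.01% in cKO cells. Gimap3 went from 14.1 and 13.6% to 9.27 and 9.51%, while Gimap6 made up 26.7 and 28.2% in control and 33.7 and 29.4% in cKO cells. The share of Gimap9 was 4.2 and 5.27% in control and 8.68 and 7.14% in cKO cells, so the positions of Gimap7 and Gimap9, close in control, parted in cKO cells.

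Set against each other member within the same sample, which leaves out any scaling between samples, Gimap7 was lower in cKO cells each time, with no overlap between the groups. Against Gimap9 it stood at 115.1 and 78.2% in control and at 20.1 and 28.2% in cKO cells, a difference of -1.99 in the log2 ratio. Against Gimap1, the next gene downstream on the same strand, it stood at 39.4 and 31.4% in control and at 12.0 and 11.5% in cKO cells (-1.58 in the log2 ratio). The smallest difference was against Gimap3, from 34.2 and 30.4% to 18.8 and 21.2% (-0.69). Gimap4 (-1.01), Gimap5 (-1.16), Gimap8 (-1.31) and Gimap6 (-1.45) lay between. The fall of Gimap7 in these samples was thus larger in size than that of any neighbour, and no test is given because the fall chose the family.

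**Figure D3:**
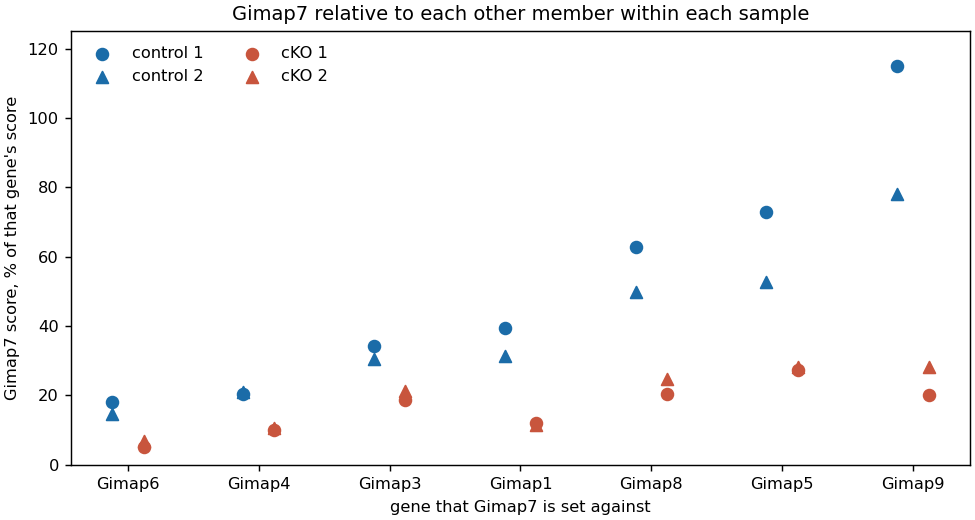
Gimap7 score as a percentage of each other member's score in the same sample (vertical axis, %), for the 4 samples. For every gene the 2 cKO points lie below the 2 control points, and the gap is widest against Gimap9, from 115.1 and 78.2% to 20.1 and 28.2%.

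By the GENCODE models, the family lies on chromosome 6 of NCBIM37, from 48597233 to 48716518, a span of 119.3 kb. In order of position the genes are Gimap8, Gimap9, Gimap4, Gimap6, Gimap7, Gimap1, Gimap5 and Gimap3, with Gimap6 and Gimap3 on the minus strand and the others on the plus strand. Gimap7 lies from 48668620 to 48674635. Gimap3, which came closest to it in the size of the fall, starts 47.9 kb downstream in its GENCODE model of coding sequence alone. The RefSeq start of Gimap3 is farther off, as the 250 bases before it lie at 48720851 to 48721100 on NCBIM37. The genes that start nearest to Gimap7, Gimap6 at -10.4 kb and Gimap1 at 20.4 kb from its start, had the smallest changes, -0.20 and -0.07 on the log2 scale. Gimap4, at -34.1 kb, lay between Gimap9 and Gimap6 in position and had a lower value than either. The size of the change thus did not fall away with distance from Gimap7.

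**Figure D4:**
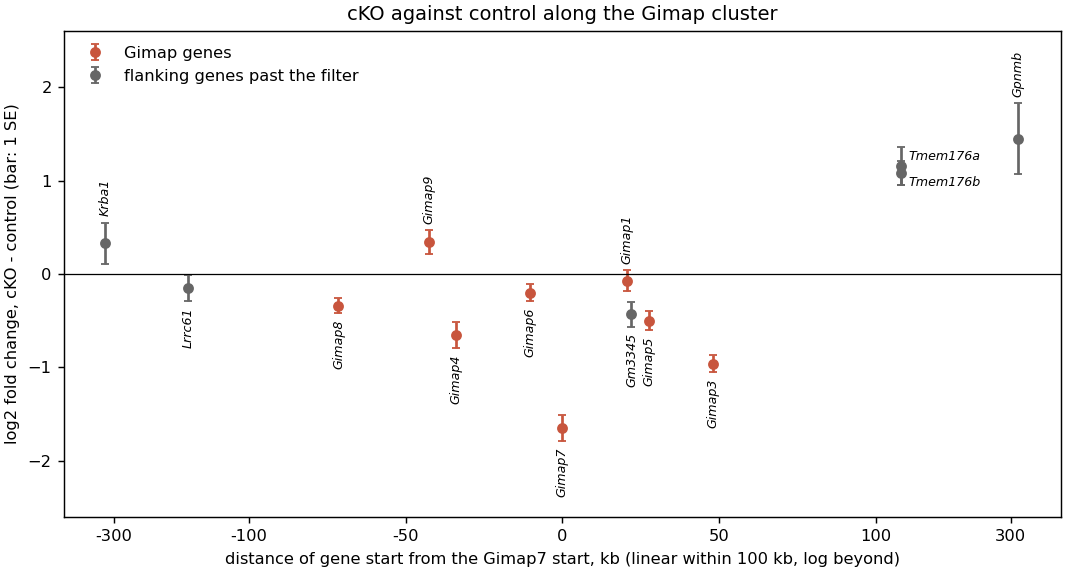
Log2 fold change, cKO minus control, with 1 SE (vertical axis), against distance of the gene start from that of Gimap7 in kb (horizontal axis, linear within 100 kb and logarithmic beyond), for the Gimap genes and the flanking genes past the minimum score. Gimap7 is lowest at -1.65, its nearest neighbours Gimap6 and Gimap1 are at -0.20 and -0.07, and the genes on the right, beyond the cluster, lie above 0.

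Outside the family, 26 annotated genes start within 300 kb of the outermost members or among them, of which 20 were listed and 6 passed the minimum score. Of these 6, limma called 0 lower and 1 higher. At an unadjusted p below 0.05, 1 (Gm3345) was lower and 3 (Tmem176b, Tmem176a and Gpnmb) were higher. The gene called higher was Tmem176b, which encodes a membrane protein of myeloid and other immune cells and lies beyond Gimap3. Its scores were 0.00691 and 0.00811 in control and 0.01483 and 0.01714 in cKO cells, a log2 fold change of 1.08 (SE 0.13, limma adjusted p = 0.0306). Its neighbour Tmem176a had a log2 fold change of 1.16 (adjusted p = 0.0579), and Gpnmb one of 1.45 (adjusted p = 0.121). On the other flank Krba1 was at 0.33 (adjusted p = 0.42) and Lrrc61 at -0.15 (adjusted p = 0.561). Of all genes tested, 1.25% were called lower and 0.812% higher, so 0 of 6 called lower does not show where the lower scores end. Among flanking genes below the minimum, Zfp775 and Repin1, on the side of Gimap8, had both cKO scores under both controls. Zfp467, Sspo and Abp1 had both cKO scores above both controls. Sspo was at 0.00017 and 0.00008 in control and at 0.00031 and 0.00023 in cKO cells. Abp1 was at 0 and 0.00002 in control and at 0.00022 and 0.00007 in cKO cells, near the floor of the scores. Of all genes tested, 28.1% had both cKO scores above both controls and 30.1% below, so such a separation is common.

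The 250 bases before the RefSeq start were searched in all 9 windows of the family, of which Gimap8 has an overlapping pair. They are shown for the members with the largest falls, Gimap7 and Gimap3, and for Gimap9, which had the opposite sign, with the build, strand and position of each window and the motif matches in capitals.
Gimap7 (GRCm38.p6 chr6:48718371-48718620, plus strand): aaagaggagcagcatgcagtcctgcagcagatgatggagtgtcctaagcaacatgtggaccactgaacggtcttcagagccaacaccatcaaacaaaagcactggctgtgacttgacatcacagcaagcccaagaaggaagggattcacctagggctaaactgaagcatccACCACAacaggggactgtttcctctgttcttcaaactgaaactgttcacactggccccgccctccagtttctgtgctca
Gimap3 (GRCm38.p6 chr6:48770852-48771101, minus strand): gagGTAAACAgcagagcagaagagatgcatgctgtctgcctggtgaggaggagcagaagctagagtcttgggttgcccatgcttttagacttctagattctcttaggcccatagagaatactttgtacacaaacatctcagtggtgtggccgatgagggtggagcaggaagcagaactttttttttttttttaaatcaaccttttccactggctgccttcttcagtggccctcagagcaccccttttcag
Gimap9 (GRCm38.p6 chr6:48675885-48676134, plus strand): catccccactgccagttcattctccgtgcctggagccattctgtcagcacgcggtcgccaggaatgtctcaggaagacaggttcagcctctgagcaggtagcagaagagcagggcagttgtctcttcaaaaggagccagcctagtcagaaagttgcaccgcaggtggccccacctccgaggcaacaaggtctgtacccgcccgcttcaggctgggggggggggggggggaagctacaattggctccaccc
The capitals mark TGTGGT (Runx type) in Gimap7, 79 to 74 bases before the start on the opposite strand, and TGTTTAC (forkhead type) in Gimap3, 247 to 241 bases before the start on the opposite strand. TGTGGT was found on either strand in the windows of Gimap1, Gimap4 and Gimap7, and in 14% of 32851 promoter windows of this length. TGTTTAC was found in that of Gimap3 alone and in 3.17% of all windows. The motif of NF-κB, the factors that IκB proteins bind, was found in 0 of the 9 windows and in 7.25% of all windows. GAAANNGAA (interferon-stimulated type) was found in 0 of 9 and in 7.13% of all, and CCGGAAG (Ets type) in 0 of 9 and in 6.91%. No stretch counted for 2 motifs in these windows. A match is a run of letters. Each motif was searched in a single form, so sites of related sequence in these windows were not counted. Absence of a match from these 250 bases says nothing of binding there or elsewhere. The RefSeq start of Gimap3 lies upstream of the start in the GENCODE model, which holds coding sequence alone.

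Genes outside the family whose profile over the 4 samples lay nearest to that of Gimap7 were Ccbp2, at a Euclidean distance of 0.181 on the log2 scale, Gbp3 (0.214), Rgs18 (0.234), Gbp5 (0.236) and Gbp6 (0.269). Ccbp2 encodes an atypical chemokine receptor, Rgs18 a regulator of G-protein signalling, and the Gbp genes the interferon-inducible guanylate-binding proteins, a separate family of GTPases. Within the family, Gimap3 was nearest to Gimap7, at a distance of 0.707, which is rank 53 among 9726 genes. Gimap4 ranked 153, Gimap5 377 and Gimap8 868, while Gimap6, Gimap1 and Gimap9 ranked 2059, 3548 and 8863. Genes elsewhere in the genome thus had profiles nearer to that of Gimap7 than any family member had. The distance depends largely on the size of the change, and the fall of Gimap7 chose the family. This order therefore in part restates that choice. These distances rest on 4 samples and a single contrast, and are a description.

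Other GTPases and proteins tied to the family were read from the same fit. Of all 9727 genes tested, 1.25% were called lower and 0.812% higher. At an unadjusted p below 0.05, 1117 were lower and 1052 higher. A count of 0 called in a short list, here and in the lists that follow, therefore says little about that list. Of the guanylate-binding proteins, 9 passed the minimum score and 5 were called lower (limma adjusted p from 0.0215 to 0.0376). On the log2 scale these were at -3.19 (Gbp1), -2.52 (Gbp2), -1.76 (Gbp6), -1.69 (Gbp3) and -1.47 (Gbp5). All 5 are in the paper's own list of reduced genes, which was drawn from these same data. The list median was -1.47, and 8 of the 9 were lower at an unadjusted p below 0.05. Of 7 septins, the proteins nearest to GIMAPs in fold, 0 were called in either direction by limma, with 1 lower and 1 higher at an unadjusted p below 0.05, and the median was 0.07. Of 7 immunity-related (IRG) GTPases 0 were called, 0 passed at an unadjusted p below 0.05, and the median was -0.15. The 12 genes of proteins reported to bind GIMAPs or to act beside them (Bcl2 and its relatives, the GABARAP and LC3 proteins, Foxo1 and Gsk3b) gave 0 calls, 2 lower and 2 higher at an unadjusted p below 0.05, and a median of 0.15. Bcl2, which restrains apoptosis, had scores of 0.02353 and 0.02068 in control and of 0.01713 and 0.01612 in cKO cells, with a log2 fold change of -0.41 (adjusted p = 0.114). Gabarapl2, the partner of Gimap6, was at 0.06 (adjusted p = 0.684).

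GIMAP transcripts are high in resting lymphocytes, so genes of that state were read alongside. Of 18 such genes past the minimum score, 0 were called in either direction by limma, with 1 lower and 4 higher at an unadjusted p below 0.05, and the median log2 fold change was 0.10. Klf2, a factor that keeps lymphocytes quiescent, was at a log2 fold change of -0.07 (adjusted p = 0.817). Members lay on either side of 0, from -0.24 for Foxp1 (adjusted p = 0.202) to 0.98 for S1pr1 (adjusted p = 0.0793). The part of the resting state in the Gimap values was not tested.

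**Figure D5:**
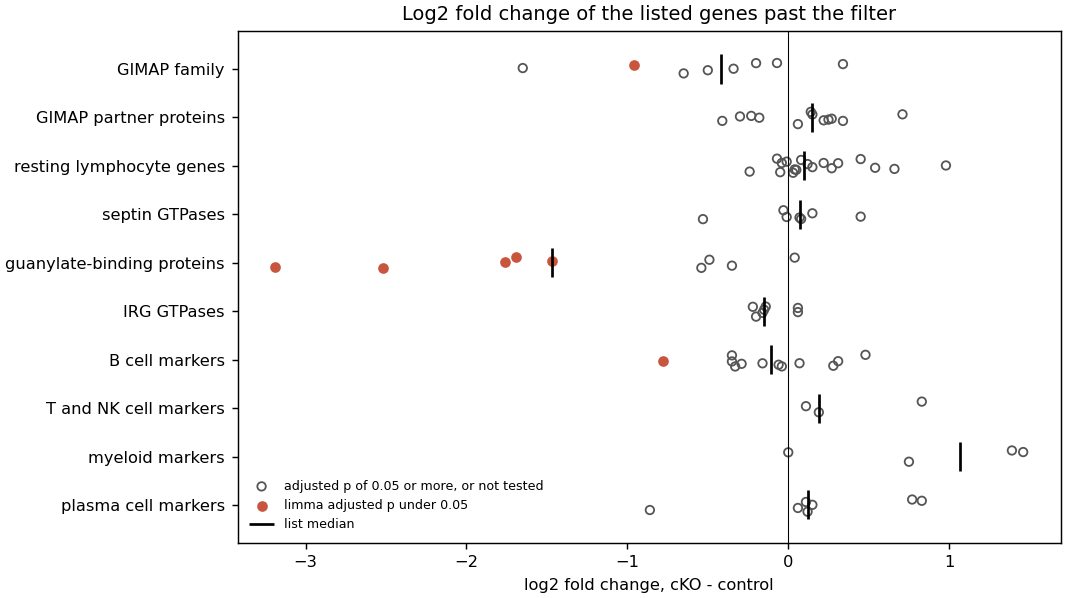
Log2 fold changes, cKO minus control (horizontal axis), of the genes past the minimum score in each list, with a vertical line at each list's median and filled points for a limma adjusted p under 0.05. The Gimap median, Gimap7 included, is -0.42, that of the guanylate-binding proteins is -1.47, and those of the septins and of the resting lymphocyte genes are 0.07 and 0.10.

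Since GIMAPs are also abundant in T cells, markers of other cells were set beside the family. Of 28 T and NK cell markers, 3 passed the minimum score, 0 were called by limma in either direction, and 1 (Lck) was higher at an unadjusted p below 0.05. Their summed score was 0.07821 and 0.09266 in control and 0.1259 and 0.121 in cKO cells, and the markers that passed were Lck, Cd2 and Cd247. Lck was at 0.03182 and 0.04373 in control and 0.06903 and 0.06355 in cKO cells. Cd3e lay between 0 and 0.0002, Cd4 between 0 and 0.00006 and Cd3g between 0.00019 and 0.0006, against 0.162 or more for Gimap6. Of the markers below the minimum, Thy1 was at 0.00003 in either control and at 0.00069 and 0.00085 in cKO cells. Cd3e, Cd3d, Cd3g, Zap70, Lat, Tcf7, Lef1, Cd6 and Nkg7 were also higher in both cKO samples than in either control. Cd28, Ctla4 and Prf1 were lower in both. Cd3e and Cd6 had a score of 0 in control replicate 1. Both cKO scores lay above both controls for 28.1% of all genes tested and below them for 30.1%. Genes under the minimum score are not part of that share. The part of T and NK cell transcripts in the Gimap values was not tested. Of 17 myeloid markers listed, 4 passed and 0 were called by limma, with 2 (Lyz2 and Lyz1) higher at an unadjusted p below 0.05 and a median log2 fold change of 1.07. The sum over the list was 0.1839 and 0.1751 in control and 0.2191 and 0.2196 in cKO cells. Most of that sum was Itgam, which had a log2 fold change of 0.00 (adjusted p = 0.988). Lyz2 was at 0.02052 and 0.01124 in control and 0.04852 and 0.03292 in cKO cells, Lyz1 had a log2 fold change of 1.46 (adjusted p = 0.0986) and Cd68 one of 0.75 (adjusted p = 0.225). S100a9 and Elane were at 0 in every sample. The part of myeloid transcripts in the Gimap values was not tested.

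Among 12 B cell markers, Cd79a alone was called, lower in cKO cells, where Cre is inserted in this locus. Its scores were 0.66695 and 0.74312 in control and 0.41541 and 0.40714 in cKO cells (log2 fold change -0.78, limma adjusted p = 0.0294). At an unadjusted p below 0.05, 5 of the 12 were lower (Cd79a, Cd22, Bank1, Ebf1 and Ptprc) and 1 (Blk) was higher. The 4 lower markers that were not called had log2 fold changes from -0.35 to -0.29, in the direction of most Gimap genes, and their part in the Gimap values was not tested. The median of the B cell markers was -0.11, and their summed score ranged from 5.449 to 5.942 in control and from 5.283 to 5.44 in cKO cells. Of 7 plasma cell markers past the minimum, 0 were called by limma, and the median was 0.12. At an unadjusted p below 0.05, 1 (Igj) was lower and 2 (Sdc1 and Slamf7) were higher. Sdc1 encodes CD138, which the paper measured as surface protein by flow cytometry and found lower in cKO B cells after LPS. The scores here are of RNA from whole cultures, so the measures differ. The list left out Prdm1, a plasma cell factor that the paper lists as reduced in cKO cells. The sum over the listed plasma cell markers was 0.6464 and 0.5676 in control and 0.6613 and 0.5884 in cKO cells, overlapping between the groups.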

How the data were processed

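Poly(A) RNA-seq scores of 2 control and 2 cKO B cell samples were analysed. The authors mapped 38-base reads to mm9 with TopHat, filtered them on base quality, took out those of rRNA and tRNA, and deposited per sample a list of 30041 genes with a score of 5 decimals each. How reads became a score is not given in the sources used here. The submitters' processing notes also name CASAVA 1.8, Bowtie, SAMtools and bedtools.

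Low scores multiplied by exon length fell near whole multiples of a step for 75.4 to 81.9% of the products (tolerance 0.2), and the inferred depth rests on this. Steps that are multiples of it cannot be told from it. A minimum score of 0.005 in any sample left 9727 genes. On log2(score + 0.0001), limma 3.58.1 (R 4.3.3) fitted the group difference with a mean-dependent prior variance and Benjamini-Hochberg adjustment, and the code was tested on simulated data. This scale understates changes of low genes. Ratios of geometric means took a score of 0 as the smallest printed step. The smallest two-sided p of an exact permutation test of 2 against 2 samples is 0.33. The members and the gene lists were chosen with earlier results of these data known. Named genes were all members, Nfkbiz, called genes of the lists, genes within 300 kb and the 5 nearest profiles, and others named from the lists were chosen for their role after their values were seen.

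Exons and 38-base windows came from GENCODE on NCBIM37, and promoter sequences from RefSeq GRCm38.p6, in which all 8 members were matched by symbol. Python 3.11.15 was used with numpy 2.4.6, pandas 2.3.3, matplotlib 3.10.9 and scipy 1.17.1. Same-numbered samples are not stated to be paired, and their deviations correlated at -0.145 over 9727 genes (Spearman -0.291). The alternatives were other pseudocounts, other minimum scores, no variance trend, a replicate block, other scalings between samples and each sample left out. LPS dose is left out because its unit differs between the sources.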

Additional observations from a re-analysis of the deposited data

How the results depend on the processing

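Gimap7 relative to the other members, a median difference of -1.30 in the log2 ratio, kept its direction under every alternative that gave a value, at -1.47 to -1.13 with a sample left out. It had no value with a minimum score of 0.05, which Gimap7 does not reach. The count of the 7 other members called lower by limma was 1, and became 0 with no minimum score or no variance trend and 2 with a replicate block or the crossed block, which was added after seeing the data. It ranged from 0 to 2 with a sample left out. The count called higher stayed at 0 under every alternative, although Gimap9 was outside the test with a minimum score of 0.05. In the other lists, 6 genes were called lower, 0 with no minimum score, 1 with no variance trend and down to 0 with a cKO sample left out, and 0 were called higher, 2 with a minimum score of 0.05, 1 with quantile normalization, 5 with a replicate block, 5 with the crossed block and 6 to 9 with a control sample left out. Nfkbiz stayed at a log2 fold change of -0.94 with no minimum score (adjusted p = 0.203) and no variance trend (adjusted p = 0.0509), where Gimap3 was at -0.96 (adjusted p = 0.203 and 0.0507). It was at -1.01 to -0.87 with a cKO sample left out. Gimap1 turned to 0.07 without cKO replicate 1 and was at -0.21 without cKO replicate 2. With no minimum score, 21582 genes were tested and 0 were called by limma, with 1538 (lower) and 1665 (higher) having an unadjusted p below 0.05. The causes of these shifts were not tested. When a sample is left out, the lone sample is assumed to vary like the other group.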
